A study of Drosophila melanogaster with 7 samples.

Results

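The core genes of the Toll pathway were followed in the trachea, the branched airway of the fly, taken from Drosophila melanogaster larvae at the third instar. They are 10 of the 17697 named genes in the deposited tables, chosen by exact symbol: PGRP-SA, nec, spz, Tl, Myd88, tub, pll, cact, dl and Dif. RNA from 7 libraries was sequenced, 4 control and 3 Hop.CA, whose titles number them as biological replicates. The number of animals behind a library is not given in the sources used here. The strain label of all 7 libraries, controls included, names btl-Gal4, UAS-GFP, UAS-Hop.CA and tub-Gal80ts. The titles of the 4 control libraries call them wildtype control, so the labels do not settle whether genotype differed between the groups. btl-Gal4 drives expression in tracheal cells, Gal80ts is a temperature-sensitive repressor of Gal4, and Hop.CA is a form of the JAK kinase Hop used here to raise JAK/STAT signalling. Control animals stayed at 18 °C. Hop.CA animals, raised at 18 °C, spent the last 18 hours before sampling at 29 °C, from the second larval stage on. Transgene expression, temperature and any difference in genotype therefore cannot be told apart in any difference below. The comparison asks which transcripts of the airway differ when JAK/STAT signalling is raised there.

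Toll signalling is a main defence route of the fly against Gram-positive bacteria and fungi, and it also patterns the embryo. The secreted sensor PGRP-SA binds bacterial peptidoglycan and starts a protease cascade that cleaves the ligand Spätzle (spz), which activates the receptor Toll (Tl), while the serpin Necrotic (nec) restrains that cascade. Inside the cell, the adaptors Myd88 and Tube (tub) recruit the kinase Pelle (pll), the inhibitor Cactus (cact) is degraded, and the NF-kappaB factors Dorsal (dl) and Dif enter the nucleus and switch on genes such as that of the antifungal peptide drosomycin.

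Reads assigned to genes numbered 16795748 to 20455268 per library. hop itself, counted first as a check of the labels, had 38.4 to 44.03 CPM (gene reads scaled to a common library size) in the control libraries and 1342 to 1593 in the Hop.CA libraries. Of 12 tracheal marker genes 11 had a row, and their summed level was 11015 to 11825 CPM in control and 16003 to 16783 CPM in Hop.CA. serp, verm and trh rose, btl fell (log2 -0.63) and 7 did not pass, with a median log2 fold change of 0.04, and serp and verm made up most of the sum. Markers of other tissues were present too. Fat body markers summed to 1945 to 7052 CPM in control and 2393 to 4610 CPM in Hop.CA, and hemocyte (blood cell) markers to 1929 to 2144 and 1294 to 2580 CPM, both with overlap between the groups. Muscle markers summed to 9734 to 20401 CPM in control and 3300 to 9980.1 CPM in Hop.CA, and imaginal disc markers to 212 to 345 and 169 to 197 CPM. The part of other tissues in the results below was not tested, except where values are given. In whole tissue, fewer cells of a type and less RNA per cell cannot be told apart.

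All 10 genes were expressed well enough to be tested. 5 of them rose in Hop.CA (Dif, pll, nec, cact and Tl), 1 fell (PGRP-SA) and 4 did not pass (spz, Myd88, tub and dl), in edgeR's quasi-likelihood test at a Benjamini-Hochberg adjusted p of 0.05. Over all 9457 tested genes 31.5% passed, 16.4% as higher and 15.1% as lower. The groups did not overlap in CPM for 6 of the 10 genes, against 43.3% of all tested genes. The median log2 fold change (Hop.CA over control) was 0.23 for the 10 genes and -0.01 for all tested genes. Without Hop.CA replicate 3 only 3 members were called higher, and 4 were when control replicate 2 and Hop.CA replicate 1 were both left out, an alternative chosen after seeing the data.

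**Figure D1:**
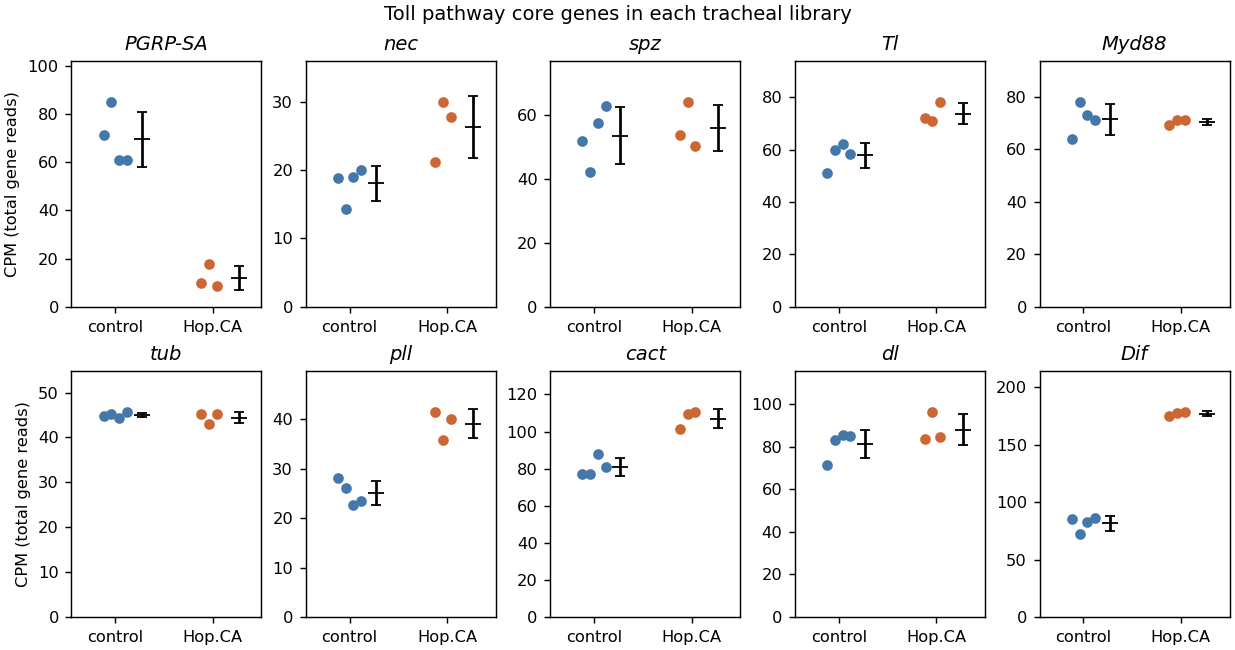
CPM of each Toll pathway core gene (vertical axes, from 0) in the 4 control and 3 Hop.CA libraries (points), with the mean and SD beside them. PGRP-SA is far lower in Hop.CA (8.79 to 17.8 against 60.9 to 85.02 CPM), Dif is higher (175 to 179 against 71.97 to 85.98 CPM), and tub lies between 42.95 and 45.6 CPM in every library.

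The sensor gene PGRP-SA fell. PGRP-SA (X, 11561643 to 11562779, plus strand, dm6) had 71.3, 85.02, 60.9 and 60.9 CPM in control replicates 1 to 4, and 9.79, 17.8 and 8.79 CPM in Hop.CA replicates 1 to 3. The groups were far apart, and Hop.CA replicate 2 was the highest of its group. The mean went from 69.5 ± 11.4 (SD, n = 4) to 12.1 ± 4.92 CPM (SD, n = 3), 5.74-fold lower, or -2.52 ± 0.271 as log2 fold change (SE, adjusted p = 0.00107 by edgeR). All of its reads were uniquely assigned, and 200 to 321 of them in a control library, but 34 to 61 in a Hop.CA library, span a splice junction (exon-exon reads).

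Immune genes such as PGRP-SA are also expressed outside the airway, so markers of other tissues were set beside it. The 9 tested fat body markers had a median log2 fold change of -0.46 and varied widely between libraries. None passed, and their lowest adjusted p was 0.242 by edgeR (Fbp1, log2 -1.85 ± 1.11, SE), with CG34040 at no read in any library. Of 13 hemocyte markers 1, NimC2, fell (log2 -2.28), with a median of -0.09. Other markers fell along with PGRP-SA. Of 13 muscle markers 8 fell (median log2 -1.28) and of 12 imaginal disc markers 4 fell and 1 rose (median -1.14), the disc sums without overlap. Of 7 tested ring gland markers 2 fell, phm (log2 -5.62) and Akh (log2 -3.74), both scarce and highest in control replicate 2. phm had 0.483, 24.1, 2.02 and 1.90 CPM in control and 0.101 to 0.16 CPM in Hop.CA. Akh had 0.483, 3.65, 0.892 and 0.826 CPM in control and 0.101 to 0.107 CPM in Hop.CA. The part of these tissues in the fall of PGRP-SA was not tested.

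**Figure D2:**
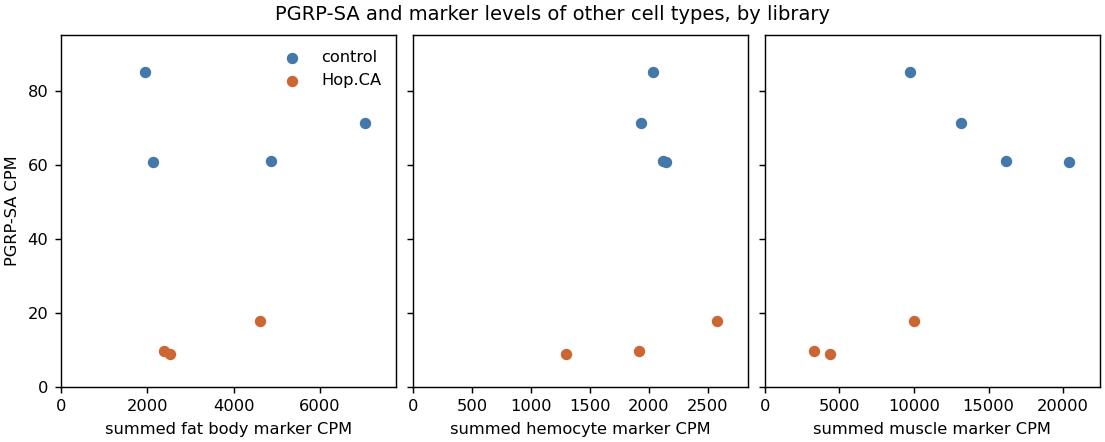
PGRP-SA level (vertical axis, CPM) against the summed CPM of fat body, hemocyte and muscle markers (horizontal axes), 1 point per library. The fat body and hemocyte sums of the groups overlap, the muscle sums of Hop.CA are mostly lower, and the 4 control libraries lie at 60.9 to 85.02 CPM of PGRP-SA and the 3 Hop.CA libraries at 8.79 to 17.8 CPM.

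The serpin gene nec (2R, 7156477 to 7158241, minus strand) was the least abundant member by CPM in control. It had 18.8, 14.3, 18.98 and 20.1 CPM in the control libraries and 21.2, 29.9 and 27.7 CPM in the Hop.CA libraries. The lowest Hop.CA library lay just above the highest control library. nec rose by log2 0.54 ± 0.153 (SE, adjusted p = 0.0303 by edgeR), from 18.05 ± 2.56 to 26.3 ± 4.56 CPM. All its exons lie within the gene pk on the opposite strand and none of them overlaps a pk exon. Only 1.68% to 3.87% of nec reads were listed as unique, and in all 7 libraries these equalled its exon-exon reads in number (5 to 16 per control library, 11 to 19 per Hop.CA library). On exon-exon reads alone the log2 fold change was 0.78 ± 0.417 (SE, adjusted p = 0.254 by edgeR), and on total reads the call was lost without control replicate 3 (adjusted p = 0.0564), Hop.CA replicate 2 (0.0999) or Hop.CA replicate 3 (0.101).

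The ligand gene spz (3R, 27064990 to 27070070, minus strand) did not pass. Its control libraries had 51.8, 42.1, 57.5 and 62.99 CPM and its Hop.CA libraries 53.8, 64.2 and 50.3 CPM, fully interleaved. The log2 fold change was 0.07 ± 0.147 (SE, adjusted p = 0.764 by edgeR), and its coefficient of variation among controls was 16.6%, close to the 16.4% of PGRP-SA and above that of the other members.

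The receptor gene Tl (3R, 26799041 to 26842403, plus strand) rose slightly. It had 50.98, 59.7, 62.2 and 58.4 CPM in control and 72.1, 70.9 and 78.2 CPM in Hop.CA. Every Hop.CA library was above every control library. The log2 fold change was 0.35 ± 0.0866 (SE, adjusted p = 0.0188 by edgeR), a 1.28-fold difference. The call was lost without Hop.CA replicate 1 (adjusted p = 0.0553) or Hop.CA replicate 3 (0.0808), and exon-exon reads of Tl were too few to weigh, 0 to 15 per control library and 15 to 30 per Hop.CA library.

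The adaptor genes did not pass. Myd88 (2R, 9302823 to 9308722, minus strand) had 63.8, 77.9, 72.9 and 70.96 CPM in control and 69.1, 71.2 and 70.95 CPM in Hop.CA, so that the Hop.CA libraries lay inside the control range. tub (3R, 4387742 to 4389813, plus strand) had 44.8, 45.1, 44.4 and 45.6 CPM in control and 45.2, 42.95 and 45.2 CPM in Hop.CA. It was the steadiest member among controls, with a coefficient of variation of 1.19%. The log2 fold changes were -0.02 ± 0.0815 for Myd88 and -0.02 ± 0.0614 for tub (SE, adjusted p = 0.871 and 0.853 by edgeR).

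The kinase gene pll (3R, 27251131 to 27253182, minus strand), whose product joins these adaptors, was higher in Hop.CA. Its levels were 28.1, 26.1, 22.6 and 23.5 CPM in control and 41.5, 35.9 and 39.997 CPM in Hop.CA, without overlap. pll rose by log2 0.64 ± 0.0973 (SE, adjusted p = 0.00304 by edgeR), a 1.56-fold difference. All its exons lie inside TfIIA-L, a general transcription factor gene on the opposite strand, with 1.61% of exon bases shared with TfIIA-L exons, and 3.03% to 5.06% of its reads were unique. TfIIA-L rose less (log2 0.28 ± 0.0655, adjusted p = 0.0159 by edgeR). On exon-exon reads, 18 to 27 per control library and 28 to 35 per Hop.CA library, the log2 fold change of pll was 0.57 ± 0.215 (adjusted p = 0.108 by edgeR). No source used here says whether counting used strand, and the values of pll and nec are therefore less certain than those of the other members.

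The inhibitor gene cact (2L, 16313036 to 16326207, minus strand), itself a target of the pathway in fat body, rose with no overlap. It had 77.3, 77.1, 87.7 and 81.1 CPM in control and 101, 109 and 110.5 CPM in Hop.CA. The log2 fold change was 0.41 ± 0.0749 (SE, adjusted p = 0.0065 by edgeR), a 1.32-fold difference, and 99.3% to 99.6% of its reads were unique. On exon-exon reads it was 0.31 ± 0.106 (adjusted p = 0.0825 by edgeR).

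Of the NF-kappaB factor genes, Dif rose and dl did not pass. dl (2L, 17436830 to 17450364, minus strand) had 71.3, 83.3, 85.7 and 84.96 CPM in control and 83.5, 96.3 and 84.6 CPM in Hop.CA. Hop.CA replicate 2 was above all controls, control replicates 1 and 2 were below all Hop.CA libraries, and the other libraries were interleaved. By RPKM the ranges just missed each other, at 10.6 to 13.07 in control and 13.085 to 14.2 in Hop.CA. dl did not pass (log2 0.12 ± 0.0928, SE, adjusted p = 0.368 by edgeR). Dif (2L, 17413248 to 17433161, minus strand) lies near dl on the same strand, with 3668 bp and 2 other annotated genes between them. It had 85.6, 71.97, 83.1 and 85.98 CPM in control, much like dl, and 175, 178 and 179 CPM in Hop.CA.

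The 3 Hop.CA libraries were close together for Dif, with a coefficient of variation of 0.996%, and far above all controls. Its mean went from 81.7 ± 6.59 (SD, n = 4) to 177 ± 1.77 CPM (SD, n = 3), 2.17-fold higher, and its log2 fold change was 1.12 with an SE of 0.0799 (adjusted p = 2.17e-04 by edgeR). Junction reads of Dif came to 148 to 198 in control libraries and 354 to 395 in Hop.CA libraries, and on them the log2 fold change was 1.12 ± 0.105 (SE, adjusted p = 2.92e-04 by edgeR). Dif and PGRP-SA were the members called on exon-exon reads, where 14.1% of 6113 tested genes were called. Dif shares 4.42% of its exon bases with CG15141 on the opposite strand, which fell (log2 -0.40 ± 0.115, adjusted p = 0.0305 by edgeR), and 91.9% to 93.9% of Dif reads were unique.

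Ratios of 2 members within a library need no scaling between libraries. RPKM, the deposited level scaled by exon length and library size, allows genes to be compared. The ratio of Dif to dl was 1.34, 0.98, 1.08 and 1.15 in control and 2.35, 2.07 and 2.36 in Hop.CA. The means were 1.14 ± 0.152 (SD, n = 4) and 2.26 ± 0.165 (SD, n = 3), and they differed by 0.998 on the log2 scale (exact permutation test, two-sided, p = 0.0286, the smallest it allows, and 0.0429 adjusted over 3 ratios). The ratio of Dif to its inhibitor gene cact was 0.638, 0.544, 0.547 and 0.616 in control and 1.01, 0.952 and 0.935 in Hop.CA. It too did not overlap between the groups, with a difference of 0.72 on the log2 scale (exact permutation p = 0.0286, adjusted 0.0429). The ratio of dl to cact, which the other ratios fix, was 0.476 to 0.555 in control and 0.396 to 0.459 in Hop.CA, also without overlap. Its means were 0.518 ± 0.0354 and 0.428 ± 0.0318, and it did not pass (log2 difference -0.28, exact permutation p = 0.0571, adjusted 0.0571).

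**Figure D3:**
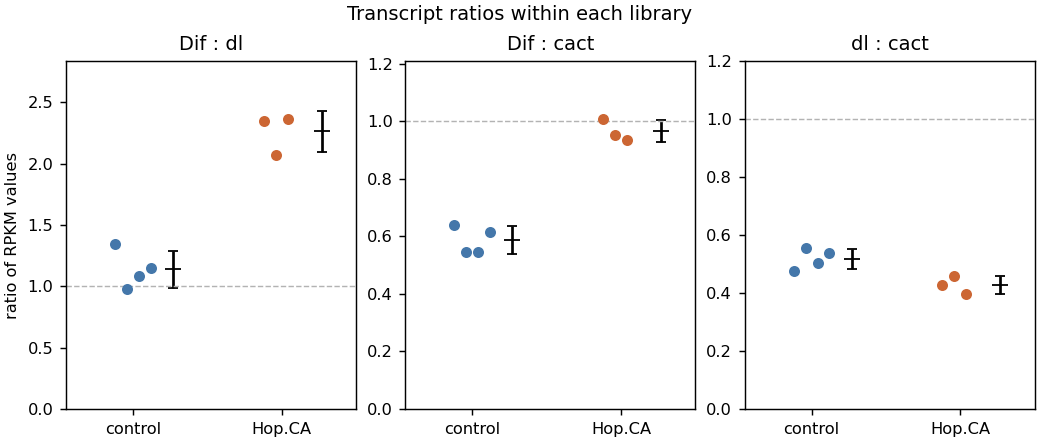
Ratios of RPKM values (vertical axes, from 0) within each of the 4 control and 3 Hop.CA libraries (points), with mean and SD, and a dashed line at equal levels. Dif to dl lies at 0.98 to 1.34 in control and 2.07 to 2.36 in Hop.CA, and Dif to cact at 0.544 to 0.638 and 0.935 to 1.01.

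By RPKM the order of the members changed at its ends. In control, PGRP-SA was highest at 67.99 ± 11.5 RPKM (SD, n = 4), clear of the next gene. cact (23.9 ± 1.59), tub (22.3 ± 0.668), spz (22.2 ± 3.72) and Myd88 (19.3 ± 1.97) followed, each overlapping its neighbour in the order. After a gap came Dif (13.98 ± 1.004), pll (12.9 ± 1.14), dl (12.4 ± 1.21), Tl (11.1 ± 1.11) and nec (11.01 ± 1.53), again overlapping from neighbour to neighbour. In Hop.CA, cact (31.6 ± 1.36 RPKM, SD, n = 3) and Dif (30.4 ± 0.791) led and overlapped each other. Below a gap stood spz (23.1 ± 2.27), tub (21.9 ± 1.305), pll (20.05 ± 2.07) and Myd88 (19.02 ± 0.391), then nec (15.9 ± 2.45), Tl (14.03 ± 1.05), dl (13.5 ± 0.663) and PGRP-SA (11.6 ± 4.32). The last 4 overlapped from neighbour to neighbour, and in Hop.CA replicate 2 PGRP-SA (16.6 RPKM) was above dl (14.2) and Tl (12.99). By group means PGRP-SA went from rank 1 to rank 10 and Dif from rank 6 to rank 2. The RPKM values of pll and nec rest mostly on reads listed as not unique.

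**Figure D4:**
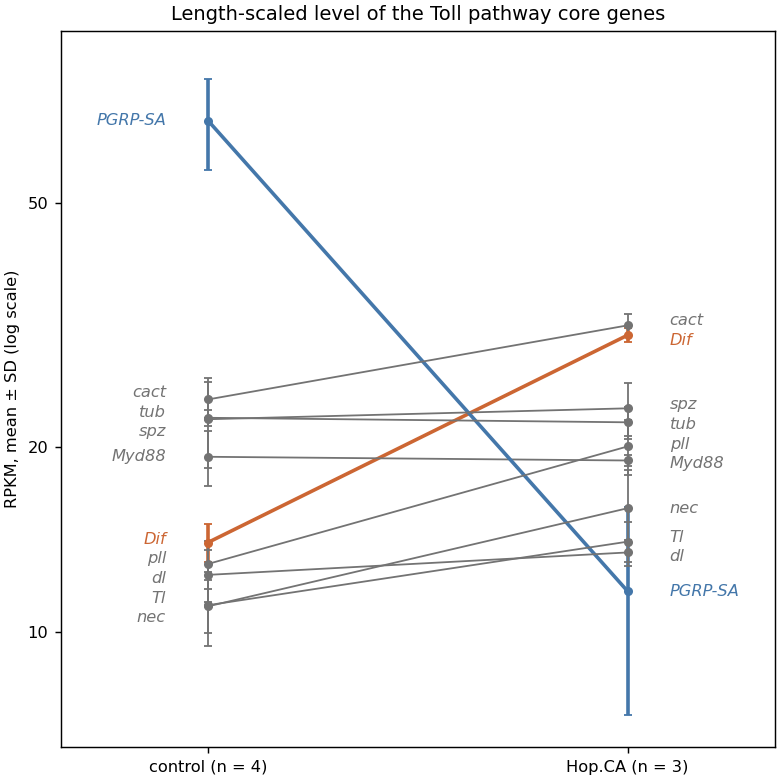
Mean RPKM with SD (vertical axis, log scale) of the 10 genes in control (n = 4) and Hop.CA (n = 3), joined by lines. The mean of PGRP-SA goes from the top (67.99) to the bottom (11.6, its range overlapping those of its neighbours) and Dif from 13.98 to 30.4, beside cact at 31.6.

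The surrounding genes of the pathway were read from lists written with earlier results of these data known, and their shares of called genes stand beside the 31.5% over all tested genes. Among recognition proteins, proteases and serpins, 2 rose and 6 fell of 19 tested genes (42.1% called), with a median log2 fold change of -0.12. pip, a sulfotransferase gene known from embryonic patterning, fell from 48.1 ± 20.99 to 8.77 ± 2.01 CPM (log2 -2.45 ± 0.362, adjusted p = 0.00358 by edgeR). GNBP2, of the family of glucan-binding proteins, fell from 2.72 to 1.01 CPM (log2 -1.42 ± 0.2495). The protease gene Hayan (log2 -0.65 ± 0.179) and the serpin gene Spn43Ab (log2 -0.65 ± 0.193) also fell. Spn43Ab overlapped between the groups, at 25.96 to 40.5 CPM in control and 17.8 to 26.7 CPM in Hop.CA. On unique gene reads it was not called (adjusted p = 0.125 by edgeR). The calls of Hayan were lost without control replicate 2 or any 1 Hop.CA library (adjusted p 0.0534 to 0.0993) and those of Spn43Ab without control replicate 1, 3 or 4 or Hop.CA replicate 1 or 3 (0.0547 to 0.124), and the count of 2 higher genes was 1 without control replicate 2, 3 or 4 or Hop.CA replicate 2 or 3, 0 without Hop.CA replicate 1, and the count of 6 lower genes was 4 to 6 over these settings.

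Relatives of the receptor and the ligand included the called genes 18w and NT1. Of 8 tested genes of the Toll and Spätzle families 3 rose and 1 fell (50% called, median log2 0.40). 18w, a Toll family receptor gene that acts in epithelial morphogenesis, had 109.7, 132, 139 and 144 CPM in control and 416, 410.3 and 388 CPM in Hop.CA. The groups lay far apart, or 1.62 ± 0.104 as log2 fold change (SE, adjusted p = 1.23e-04 by edgeR). NT1, a Spätzle family gene whose product acts as a neurotrophin, had 9.07, 9.36, 6.84 and 7.83 CPM in control and 0.793, 1.65 and 1.36 CPM in Hop.CA (log2 -2.70 ± 0.266, adjusted p = 6.69e-04 by edgeR). Toll-7 (log2 0.69 ± 0.186) and spz3 (log2 0.52 ± 0.13003) rose as well. Toll-7 lost its call without control replicate 1, 3 or 4 or Hop.CA replicate 1 or 3 (adjusted p 0.0611 to 0.0956) and spz3 without Hop.CA replicate 2 or 3 (0.0649 and 0.0748), so that without Hop.CA replicate 3 the count of higher genes was 1, and without control replicate 1 the count of lower genes was 2.

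Of 20 tested intracellular partners and regulators 4 rose and 1 fell (25% called, below the share over all tested genes, median log2 0.13). TM9SF4, a membrane protein gene, stood at 55.99 ± 2.105 CPM in control and 98.2 ± 6.96 CPM in Hop.CA and rose by log2 0.81 ± 0.0744 (SE, adjusted p = 5.77e-04 by edgeR), and the kinase gene Doa rose from 146 ± 11.5 to 218 ± 3.07 CPM (log2 0.58 ± 0.0807). wek, an adaptor of the receptor, rose by log2 0.32 ± 0.0827, and Pli, which encodes the Pelle-binding protein Pellino, fell by 0.47 ± 0.121 on the log2 scale. wek lost its call without control replicate 3 or 4 or any 1 Hop.CA library (adjusted p 0.0507 to 0.0877) and Pli without Hop.CA replicate 2 (0.0587), the count of higher genes was 2 without any 1 of those control replicates or Hop.CA libraries, and that of lower genes was 2 without control replicate 1.

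The Imd pathway, the other NF-kappaB route of the fly, was set beside it. Of its 11 tested genes 4 rose and 1 fell (45.5% called; 2 fell without control replicate 1), with a median log2 fold change of 0.22. With the replicate number as a block 0 rose and 0 fell, and on exon-exon reads 2 rose and 0 fell. Its receptor genes PGRP-LE and PGRP-LC rose by log2 0.37 ± 0.0702 and 0.36 ± 0.0742, and IKKbeta by 0.36 ± 0.0778, while the caspase gene Dredd had a log2 fold change of -0.34 ± 0.0642 (adjusted p 0.00682 to 0.0119 over these 4 by edgeR). Each of these was smaller in size than the log2 fold change of Dif but near those of Tl (0.35) and cact (0.41). The median of the Imd genes was near the 0.23 of the core Toll genes, and no difference between the pathways was tested. Rel, the NF-kappaB factor of that pathway, did not pass (log2 0.20, adjusted p = 0.142 by edgeR).

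Of 25 genes listed as Toll-responsive peptides, among them the drosomycin-like genes Drsl1 to Drsl6, 24 had a row and 10 were tested. Of those 8 rose while the other 2 did not pass (80% called). IM1, IM2, IM14, CG5791 and CG5778 had at most 0.437 CPM in any control library and at least 0.606 CPM in every Hop.CA library. They passed the count filter only through Hop.CA and could only be called higher, so the 80% cannot be set against 31.5%. IM3, at 0.096 to 0.923 CPM in control and 1.21 to 5.71 CPM in Hop.CA, also needed Hop.CA libraries to pass that filter. Whether Toll drives the listed genes in the trachea was not tested. Drs, the drosomycin gene, chosen here after its values were seen, had 217 to 810.1 CPM in control and 2257 to 4132 CPM in Hop.CA. The 4 genes with the highest fitted fold changes were scarce. IM4 had 1.06 to 1.88 CPM in control and 13.5, 46.6 and 3.03 CPM in Hop.CA, and IM14, IM2 and CG5791 had at most 0.268 CPM in any control library and at most 6.08 CPM in Hop.CA. Hop.CA replicate 2 was the highest library for these 4, as it was within its group for nec, PGRP-SA, spz, Myd88 and dl. The count of 8 was 5 without control replicate 1, 3 or 4, and 3 with limma-voom or with at least 1 CPM in 3 libraries, and CG5791 lost its call without any 1 control library (adjusted p 0.0509 to 0.0544). With control replicate 2 and Hop.CA replicate 1 both left out, the counts of higher and lower genes were 0 and 4 for recognition proteins, proteases and serpins, 3 and 1 for the Toll and Spätzle families, 2 and 0 for the intracellular genes, 1 and 0 for the Imd genes, and 6 and 0 for the peptides. With the replicate number as a block they were, in the same order, 0 and 4, 1 and 1, 2 and 0, 0 and 0, and 2 and 0. On exon-exon reads they were 1 and 2, 0 and 0, 3 and 0, 2 and 0, and 1 and 0.

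**Figure D5:**
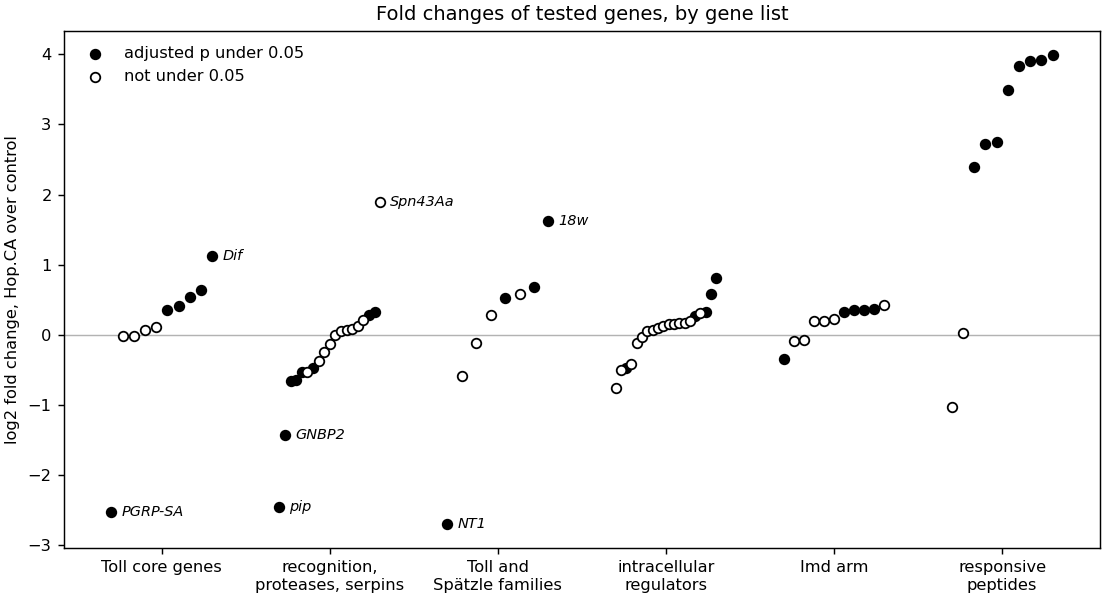
log2 fold change of Hop.CA over control (vertical axis) for each tested gene of the 6 lists, filled where the adjusted p of edgeR was under 0.05. Among the core genes, Dif (1.12) and PGRP-SA (-2.52) stand outermost, as 18w (1.62) and NT1 (-2.70) do among the Toll and Spätzle families.

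Genes with levels most like those of Dif and PGRP-SA over the 7 libraries were found by Pearson's r of log2 CPM, which the difference between the groups dominates and which is given as a description. For Dif they were the chaperone gene Hsp60A (r = 0.998), Osi24 (0.996) and ssp (0.996), and 32 genes had an r over 0.99. Hsp60A, a mitochondrial heat shock protein gene, had 286 to 351 CPM in control and 667 to 681 CPM in Hop.CA. For PGRP-SA they were CG11671, CG7650 and grk, an EGFR ligand gene, each with an r of 0.994, among 8 genes over 0.99.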

How the data were processed

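Tracheal poly(A) RNA was sequenced from 7 libraries and the library kit keeps strand, per the labels' protocols. For each library the authors deposited 1 table with whole-number read counts per gene (total, unique, exon, exon-exon and intron reads) and RPKM. The deposited RPKM is scaled by exon length and library. The submitters' processing notes name cutadapt 1.8.1 and dm6. Which aligner and counting program were used, and whether strand was, is not given in the sources used here. Non-unique reads made up 9.07% to 10.7% of gene reads per library and intron reads 5.06% to 7.17%.

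Total gene reads were tested with edgeR 4.0.16 (R 4.3.3) over the whole table: filterByExpr (minimum count 10, minimum total 15), TMM, robust quasi-likelihood with the group as the only term, and Benjamini-Hochberg adjustment over 9457 genes. The SE was taken from the F statistic, as log2 fold change divided by its root. The steps were tested on simulated counts. Positions come from the tables and match the Ensembl annotation (dm6). Ratios of RPKM were compared by exact permutation over 35 splits (scipy 1.17.1). Alternatives used DESeq2 1.42.0 and limma 3.58.1, and figures matplotlib 3.10.9. No libraries matched within sampling noise (lowest chi-square per degree of freedom 20.6). The p-values of edgeR weigh a group difference against the spread between these libraries, estimated with information shared over genes. Those of the permutation test place the observed split among all 35.

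All 10 members were to be named, with up to 4 called genes of the largest change per list, and the 3 genes most like the highest and lowest called member. Members, lists and markers were chosen with earlier results of these data known. Exon-exon reads, and the removal of control replicate 2 with Hop.CA replicate 1, were added after seeing the data. Replicate numbers were not taken as pairs. Promoter motifs were not searched, since no sequence was used here.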

Additional observations from a re-analysis of the deposited data

Results flagged for a closer look

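Among 53 sets of 4 control values examined (levels of the members and other named genes, ratios and marker sums), 3 held a library far from the others, and chance alone gives about 1 in 20. dl had 71.3 CPM in control replicate 1 against 83.3 to 85.7 CPM in the other controls, and by RPKM 10.6 against 12.8 to 13.1. The Hop.CA libraries of dl, at 83.5 to 96.3 CPM, overlapped the controls, while by RPKM, at 13.085 to 14.2 against 10.6 to 13.07, they just did not. Summed ring gland markers stood at 136 CPM in control replicate 2 against 35.8 to 44.2 CPM in the other controls, and the same library had the highest control level of PGRP-SA, 85.02 CPM.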

How the results depend on the processing

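The fall of PGRP-SA and the rise of Dif kept their calls in all 18 alternatives, with log2 fold changes of -2.90 to -2.28 and 1.06 to 1.15. The 3 ratios kept their direction and side of the threshold on total gene reads and unique exon reads. The count of members called higher, 5, was 3 on unique gene reads (which nearly leave out pll and nec by construction), 3 at an adjusted p under 0.01, 1 on exon-exon reads, 2 with the replicate block, and 3 to 5 without 1 library. The count of members called lower was 1 throughout. All tested genes called numbered 2978, and 1676 to 3407 without 1 library, 1573 without control replicate 2 and Hop.CA replicate 1, 863 on exon-exon reads and 938 with the replicate block. Same-numbered libraries did not deviate together (correlations of -0.223, -0.432 and -0.0694), so the numbers give no pairing. Of the members that were never called, dl kept its sign in all 18 alternatives (log2 0.0477 to 0.281), while spz, Myd88 and tub changed sign. Without 1 library spz ranged from -0.0392 to 0.15, Myd88 from -0.0805 to 0.0227 and tub from -0.0324 to 0.00886. Without control replicate 2 and Hop.CA replicate 1 spz was at -0.00398 and Myd88 at 0.0387. The cause of these changes was not tested. Few exon-exon reads stand behind Tl, tub, pll and nec, none of which had more than 35 per library.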

Other observations

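The nearest tested genes that flank or overlap the members give further values. RpII215, which encodes the large subunit of RNA polymerase II and lies 20 bp from PGRP-SA, rose by log2 0.33 ± 0.105 (adjusted p = 0.0483 by edgeR), and CG1572 on the other side did not pass (log2 0.23 ± 0.118, adjusted p = 0.176). Next to cact, fzy, a mitotic regulator gene which overlaps 1.86% of the cact exon bases on the opposite strand, fell from 21.5 to 11.6 CPM (log2 -0.89 ± 0.195, adjusted p = 0.0125). Beside tub, Cont did not pass (log2 -0.07, adjusted p = 0.658) and CG14646 rose (log2 0.31, adjusted p = 0.0184).

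Intron reads of the members were few. They made up at most 3.08% of the reads of any member in any library, and nec had none. For Dif they were 1.03% to 2.43% and for dl 0.19% to 2.46% of reads.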
